A study of Homo sapiens with 28 samples.

Results

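The genes described here are the 5 subunits of NF-kappaB (NFKB1, NFKB2, REL, RELA and RELB), 3 inhibitors that hold the subunits in the cytosol (NFKBIA, NFKBIB and NFKBIE) and 2 feedback genes (TNFAIP3 and BIRC3). They were taken by symbol from the deposited count tables, which list 60286 genes. All 10 were found once in each table, and all 10 were among the 16325 genes with enough counts to test. RNA was sequenced from HT-1080 cells, a human fibrosarcoma line labelled wild type, in 28 libraries of 7 groups with 4 libraries each. Cells were incubated overnight with DMSO as vehicle, 10 nM RSL3, 80 µM LA, 80 µM CLA18:2, 10 nM RSL3 with 80 µM LA, 10 nM RSL3 with 80 µM CLA18:2, or 5 µM CLA18:3. The series text calls the replicates independent. RSL3 blocks GPX4, which detoxifies peroxidised membrane lipids, and is used to trigger ferroptosis, a death by lipid peroxidation. LA is linoleic acid, CLA18:2 is its isomer with conjugated double bonds, and CLA18:3 is a conjugated triene.

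NF-kappaB factors are dimers of proteins that share the Rel homology domain. RELA, RELB and REL carry activation domains, whereas NFKB1 and NFKB2 encode the precursors p105 and p100, which are processed to the DNA-binding subunits p50 and p52. In the canonical pathway the IKK complex marks inhibitors such as IkappaB alpha (NFKBIA) for destruction and frees dimers of p50 with RELA or REL. In the noncanonical pathway the kinase NIK (MAP3K14) drives processing of p100 and frees p52 with RELB. Several genes of the pathway are themselves targets of NF-kappaB, among them NFKBIA, NFKB2, TNFAIP3 and BIRC3. Activity of the factors is set largely by protein degradation and nuclear entry, which RNA counts do not measure.

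RefSeq promoters (GRCh38.p14) were present for 8 of the 10 genes, and RELB and NFKBIE were the other two. The 250 bases before each start were searched on both strands for the kappaB consensus, the sequence bound by NF-kappaB dimers. Of 35116 promoters of this length in the table, 9.96% held a match, against 8 of the 13 promoters of these genes. Of the 8 genes, 7 had a match before at least 1 of their starts. The 9.96% is a share of promoters, and no share per gene over all genes was counted to set beside this. The matched stretches are shown because the genes that hold them moved in different directions in the results below. Capitals mark the match, overlapping matches that differ by a 1-base shift are joined, and lower case gives the neighbouring bases.
NFKB2: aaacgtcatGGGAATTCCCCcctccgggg
NFKB2: ggccgagaaGGGGCTTTCCcggccctga
NFKB2: ggtattttcGGGACTTTCCtaagctgct
NFKB1: gacgtcagtGGGAATTTCCagccaggaa
REL: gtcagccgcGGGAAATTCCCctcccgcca
NFKBIA: gactggcttGGAAATTCCCcgagcctga
NFKBIB: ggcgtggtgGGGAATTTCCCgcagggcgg
TNFAIP3: cgtgactttGGAAAGTCCCgtggaaatc
BIRC3: ttgggtcatGGAAATCCCCgagtgggtt

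The NFKB2 stretches lie at chr10:102394462-102394490, chr10:102394491-102394518 and chr10:102395675-102395702 on the plus strand, before 2 of its 3 RefSeq starts. The NFKB1 stretch lies at chr4:102501301-102501328 and that of REL at chr2:60881518-60881546, both on the plus strand. The stretch of NFKBIA lies at chr14:35404812-35404839 on the minus strand, 81 bases before the start. The stretch of NFKBIB lies at chr19:38899932-38899960, that of TNFAIP3 at chr6:137867183-137867210 and that of BIRC3 at chr11:102317276-102317303, all on the plus strand. NFKB2, TNFAIP3 and BIRC3 each had 1 further separate or partly overlapping match in these windows that is not printed. RELA, with 2 starts in the table, had no match in either window. A match describes the letters of the window and does not show that a factor binds there.

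GENCODE release 29 (GRCh38) annotates each of the 10 as protein-coding. NFKB2 lies on chromosome 10 from 102394110 to 102402529, RELB on chromosome 19 from 45001430 to 45038198 and NFKBIA on chromosome 14 from 35401511 to 35404749. TNFAIP3 lies on chromosome 6 from 137867188 to 137883312, REL on chromosome 2 from 60881521 to 60931610 and RELA on chromosome 11 from 65653596 to 65663094. In that annotation 43.3% of the exon bases of REL are shared with another gene on the same strand, AC010733.2. The count tables have 0 rows of that name, and the annotation used in counting is not given in the sources used here, so it is not known whether the overlap touched the counts of REL. Exon overlap was 1.88% for TNFAIP3, 1.72% for NFKBIB and 0.165% for RELA, in each case with a gene on the opposite strand, and none for the other genes. The strand setting of the counting is not given in the sources used here.

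Library totals ran from 16226270 to 24286824 counts. Counts per library were lowest for REL (10 to 92) and BIRC3 (20 to 69), and highest for RELA (2161 to 3459). The spread between replicates over all genes, as a biological coefficient of variation, was 4.51% in DMSO, 7.26% to 9.01% in the next 4 groups, 15.1% for RSL3+CLA18:2 and 19.9% for CLA18:3. Genes detected at a common total numbered 22666 to 22889 in DMSO libraries, 19006 to 21291 in RSL3+CLA18:2 and 18675 to 20461 in CLA18:3. Mitochondrially encoded mRNAs took 1.26% to 1.49% of counts in DMSO and 1.46% to 1.93% with RSL3+LA. They varied more within the other groups, from 0.312% to 1.48% in CLA18:2. With RSL3+CLA18:2 they took 0.263% to 0.313% in replicates 1, 2 and 4 and 1.68% in replicate 3. The part of these differences in the results was not tested. Of 10 mesenchymal markers, 10 were tested, with FN1 and VIM at means of 5875 and 2391 CPM over all libraries. THY1 and S100A4, of the same list, were near the floor, at means of 0.310 and 1.01 CPM. Of 10 blood cell markers, 8 had 3 to 29 counts over all 28 libraries together, PTPRC among them at 4. The blood list summed to 32.3 to 38.1 CPM in DMSO and 55.0 to 58.3 CPM in CLA18:2, nearly all from CSF1R and NCAM1, and the part of this in the results was not tested. Of 8 epithelial markers, EPCAM had 5 counts in all and the list summed to at most 6.47 CPM in any library.

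Per kilobase of exon, RELA had the highest level of the 10 genes in DMSO, at 24.6 ± 0.418 CPM per kb (SD, n = 4), followed by NFKBIB at 16.7 ± 0.598. NFKB2 at 10.6 ± 0.784, NFKB1 at 9.75 ± 0.401 and NFKBIA at 8.52 ± 0.642 came next. The libraries of NFKB2 and NFKB1 overlapped on this scale, and those of NFKBIA lay below both. NFKBIE at 5.16 ± 0.636 lay above RELB at 4.18 ± 0.339, with no overlap. TNFAIP3 stood at 2.83 ± 0.202, and BIRC3 (0.294 ± 0.0424) and REL (0.234 ± 0.0406), whose libraries overlapped, were far below the rest. In the CLA18:3 libraries NFKBIA reached 17.1 ± 0.823 CPM per kb and NFKB2 15.5 ± 0.286, while REL fell to 0.0989 ± 0.0539.

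**Figure D1:**
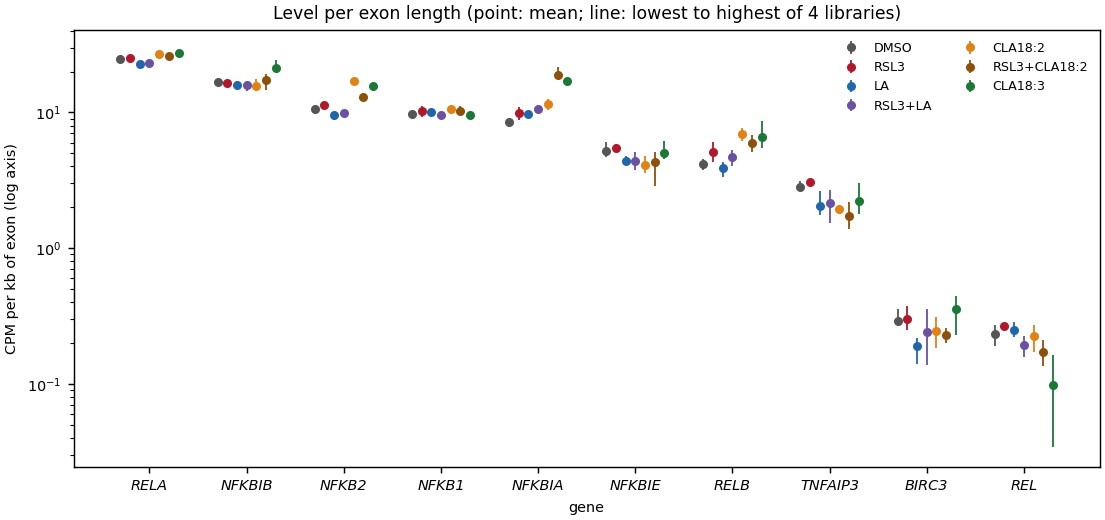
Level of each gene per kilobase of exon (CPM per kb, log axis) in the 7 groups, with points at the mean and lines from the lowest to the highest of 4 libraries. RELA lies highest in every group and REL and BIRC3 lowest, and the points of NFKB2 and NFKBIA shift between groups.

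Values below are CPM scaled by TMM, log2 fold changes ± SE, and Benjamini-Hochberg adjusted p values over all genes from edgeR's quasi-likelihood test with n = 4 libraries per group. A p value is set against a spread between these cultures that the fit estimates over all 7 groups together. It is not the spread of the groups compared, which over all genes ran from 4.51% in DMSO to 19.9% in CLA18:3. In RNA from whole cultures, fewer cells with a transcript and less of it per cell cannot be told apart.

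NFKB2 and RELB, the subunits of the noncanonical dimer, rose with both conjugated acids. NFKB2 stood at 45.9, 43.3, 50.8 and 50.001 CPM in the DMSO libraries, and at 74.7, 81.1, 75.0 and 72.6 CPM with CLA18:2. With CLA18:3 it was 70.3, 71.1, 68.2 and 69.1 CPM, and with RSL3+CLA18:2 55.3, 58.3, 57.6 and 62.1 CPM. All 12 of these libraries lay above every DMSO library. In RSL3 libraries NFKB2 was 53.9, 50.9, 50.1 and 49.9 CPM, with LA 44.4, 43.3, 39.1 and 43.4 CPM, and with RSL3+LA 42.5, 45.2, 41.9 and 46.7 CPM, each group overlapping DMSO. The change against DMSO was 0.68 ± 0.06 with CLA18:2 (1.6-fold, adjusted p = 6.7e-12), 0.55 ± 0.06 with CLA18:3 (adjusted p = 1.6e-09) and 0.30 ± 0.06 with RSL3+CLA18:2 (adjusted p = 9.3e-05). With RSL3 it was 0.11 ± 0.06 and with LA -0.16 ± 0.06, neither past the threshold (adjusted p = 0.880 and 0.101).

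RELB, the partner of p52, had 11.4, 12.3, 13.7 and 13.3 CPM in DMSO and 23.3, 20.7, 18.7 and 21.5 CPM with CLA18:2. It had 17.2, 20.5, 16.5 and 26.1 CPM with CLA18:3, and 19.6, 20.7, 16.7 and 15.6 CPM with RSL3+CLA18:2. None of these 12 libraries overlapped DMSO, and replicate 4 of CLA18:3 was well above the other 3. RELB rose by 0.73 ± 0.13 with CLA18:2 (adjusted p = 1.4e-05), 0.66 ± 0.13 with CLA18:3 (adjusted p = 8.2e-05) and 0.51 ± 0.13 with RSL3+CLA18:2 (adjusted p = 0.0017). Without replicate 4 the CLA18:3 change was 0.50 (adjusted p = 0.0018). RELB was 13.1 to 18.4 CPM with RSL3, 10.2 to 13.1 with LA and 12.3 to 16.1 with RSL3+LA, and these changes of 0.30 ± 0.13, -0.10 ± 0.13 and 0.17 ± 0.13 did not pass.

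Of the subunits of the canonical dimers, RELA and NFKB1 moved little. RELA, the main activating subunit, had 133 to 138 CPM in DMSO, 143 to 152 with CLA18:2 and 141 to 157 with CLA18:3. The groups did not overlap DMSO, but the size was small, at 0.14 ± 0.04 (adjusted p = 0.011) and 0.16 ± 0.04 (adjusted p = 0.0044). Both calls were lost without the low-count filter (adjusted p = 0.053 and 0.125). On CPM without TMM scaling, replicate 3 of CLA18:3 was at 135.8, within the DMSO range of 133.7 to 139.3. With LA, RELA was 122 to 129 CPM, below each DMSO library, at -0.12 ± 0.04 and adjusted p = 0.118. NFKB1, the precursor of p50, passed the test in none of the 6 comparisons with DMSO by edgeR. Its changes ran from -0.03 with RSL3+LA to 0.12 with CLA18:2, where the 95% interval was -0.00 to 0.24 and adjusted p = 0.122. A fit on CLA18:2 and DMSO alone gave it 0.13 with adjusted p = 0.038.

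REL, the subunit named c-Rel and best known from lymphocytes, was near the detection floor and fell with CLA18:3. It had 2.52, 3.51, 3.56 and 2.73 CPM in DMSO (48 to 83 counts) and 1.42, 1.16, 2.17 and 0.454 CPM with CLA18:3 (10 to 40 counts). The 4 CLA18:3 libraries lay below every DMSO library. The change was -1.26 ± 0.27 (adjusted p = 3.4e-04), and -0.98 without replicate 4 of CLA18:3, the lowest. CLA18:3 libraries also had fewer detected genes (18675 to 20461 against 22666 to 22889), and the part of this in the fall of REL was not tested. With RSL3+CLA18:2 REL was 1.78 to 2.76 CPM, at -0.45 ± 0.26 and adjusted p = 0.183, and it was 2.27 to 3.61 CPM with CLA18:2, overlapping DMSO. Against RSL3 alone (3.34 to 3.64 CPM) RSL3+CLA18:2 had REL at -0.63 ± 0.26, which did not pass (adjusted p = 0.060) but did in a fit on these 2 groups (adjusted p = 0.039) and in limma voom (adjusted p = 0.048).

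**Figure D2:**
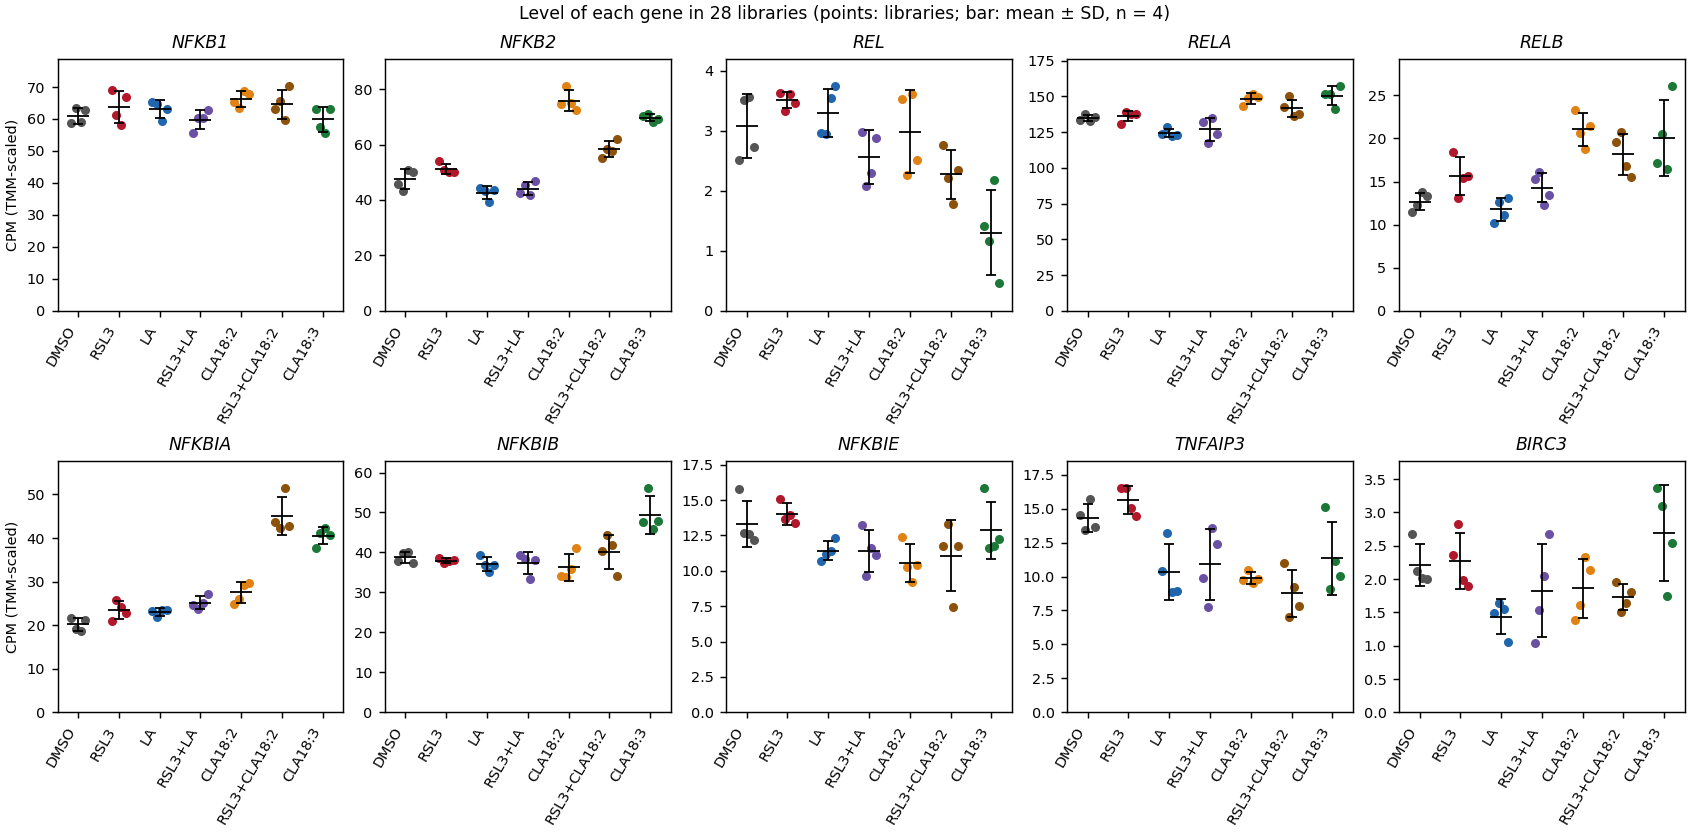
Level of each of the 10 genes (CPM, TMM-scaled) in the 28 libraries by group, with points for libraries and bars for mean ± SD of 4. NFKB2 is highest in CLA18:2 and CLA18:3, NFKBIA in RSL3+CLA18:2 and CLA18:3, and REL is lowest in CLA18:3.

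Of the inhibitors, NFKBIA rose most, and it did so in a different order of treatments from NFKB2. IkappaB alpha is the inhibitor that is degraded and then made again as NF-kappaB acts on its gene. NFKBIA had 21.7, 19.2, 18.6 and 21.3 CPM in DMSO, and 43.8, 42.3, 51.6 and 42.7 CPM with RSL3+CLA18:2. With CLA18:3 it had 37.8, 41.2, 42.4 and 40.7 CPM, and with CLA18:2 24.9, 26.1, 29.3 and 29.8 CPM. All of these lay above DMSO, and RSL3+CLA18:2 and CLA18:3 lay above CLA18:2 as well. With RSL3+LA it had 24.7, 23.6, 25.0 and 27.1 CPM, with LA 23.4, 21.8, 23.5 and 23.5 CPM, and with RSL3 21.0, 25.8, 24.1 and 22.9 CPM.

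NFKBIA rose by 1.16 ± 0.08 with RSL3+CLA18:2 (2.23-fold, adjusted p = 4.1e-14), by 1.003 ± 0.08 with CLA18:3 (adjusted p = 2.4e-12), by 0.44 ± 0.08 with CLA18:2 (adjusted p = 2.7e-05) and by 0.31 ± 0.08 with RSL3+LA (adjusted p = 0.0075). RSL3 and LA alone gave 0.22 ± 0.08 and 0.19 ± 0.08, which did not pass (adjusted p = 0.588 and 0.179). Replicate 3 of RSL3+CLA18:2 set the top of its group and had 1.68% mitochondrial mRNA against 0.263% to 0.313% in the other 3. Without it the rise was 1.09 (adjusted p = 4.1e-13).

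NFKBIB encodes IkappaB beta. It had 37.5 to 40.2 CPM in DMSO and 45.8 to 56.2 CPM with CLA18:3, where it rose by 0.34 ± 0.07 (adjusted p = 4.1e-04) with no overlap. In the other 5 treatments it lay between 33.2 and 44.3 CPM and did not pass. NFKBIE, which encodes IkappaB epsilon, had 12.2 to 15.8 CPM in DMSO and 9.19 to 12.4 CPM with CLA18:2, and the libraries overlapped. Its change of -0.33 ± 0.13 was just past the threshold (adjusted p = 0.0494) and was lost in 9 of 14 alternatives, with adjusted p up to 0.233. Replicate 1 of DMSO, at 15.8 CPM against 12.2 to 12.7 in the other 3, was among the libraries without which it was lost (-0.23, adjusted p = 0.233).

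TNFAIP3 encodes A20, a ubiquitin-editing enzyme that shuts down signals to IKK, and it fell with CLA18:2 and with RSL3+CLA18:2. TNFAIP3 had 14.5, 13.4, 15.7 and 13.7 CPM in DMSO and 9.73, 10.5, 9.49 and 9.80 CPM with CLA18:2. With RSL3+CLA18:2 it had 11.0, 7.05, 9.20 and 7.83 CPM, and these 8 libraries lay below every DMSO library. With CLA18:3 it had 15.1, 9.06, 11.1 and 10.0 CPM, and replicate 1 overlapped DMSO. The change was -0.53 ± 0.15 with CLA18:2 (adjusted p = 0.0055) and -0.71 ± 0.16 with RSL3+CLA18:2 (adjusted p = 4.3e-04). With CLA18:3 it was -0.34 ± 0.15 (adjusted p = 0.085), and it passed at -0.51 (adjusted p = 0.0091) without replicate 1 and at -0.37 (adjusted p = 0.025) with no low-count filter.

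With LA, TNFAIP3 had 10.4, 13.2, 8.85 and 8.92 CPM, all below DMSO. The change of -0.47 ± 0.15 just missed the threshold (adjusted p = 0.0525) and passed it without the low-count filter, in DESeq2, in limma voom and in a fit on these 2 groups, where adjusted p ran from 0.0023 to 0.039, and without replicate 2 of LA (-0.62, adjusted p = 0.012). With RSL3+LA it had 7.74 to 13.6 CPM, at -0.39 ± 0.15 and adjusted p = 0.107. It passed there with no low-count filter (adjusted p = 0.047), in a fit on the 2 groups (0.046), in limma voom (0.017) and without replicate 3 of RSL3+LA (0.038). With RSL3 it had 14.5 to 16.5 CPM, at 0.13 ± 0.15. Between the isomers no difference in TNFAIP3 passed, and CLA18:2 less LA was -0.07 (95% interval -0.39 to 0.25). With RSL3 present the same difference was -0.32 (95% interval -0.64 to 0.01, adjusted p = 0.145), and -0.45 (adjusted p = 0.034) without replicate 2 of RSL3+LA.

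BIRC3 encodes cIAP2, a ubiquitin ligase that acts with TRAF proteins in both pathways and restrains cell death. At 1.05 to 3.37 CPM over all libraries it passed the test in no comparison by edgeR. Its lowest group was LA, at 1.49, 1.64, 1.55 and 1.06 CPM against 2.68, 2.13, 2.02 and 2.01 CPM in DMSO. These groups did not overlap, and the change of -0.62 ± 0.27 had adjusted p = 0.185. In limma voom it was -0.63 with adjusted p = 0.045. With RSL3+CLA18:2 it was 1.51 to 1.96 CPM, also below DMSO, at -0.35 ± 0.26 and adjusted p = 0.327.

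**Figure D3:**
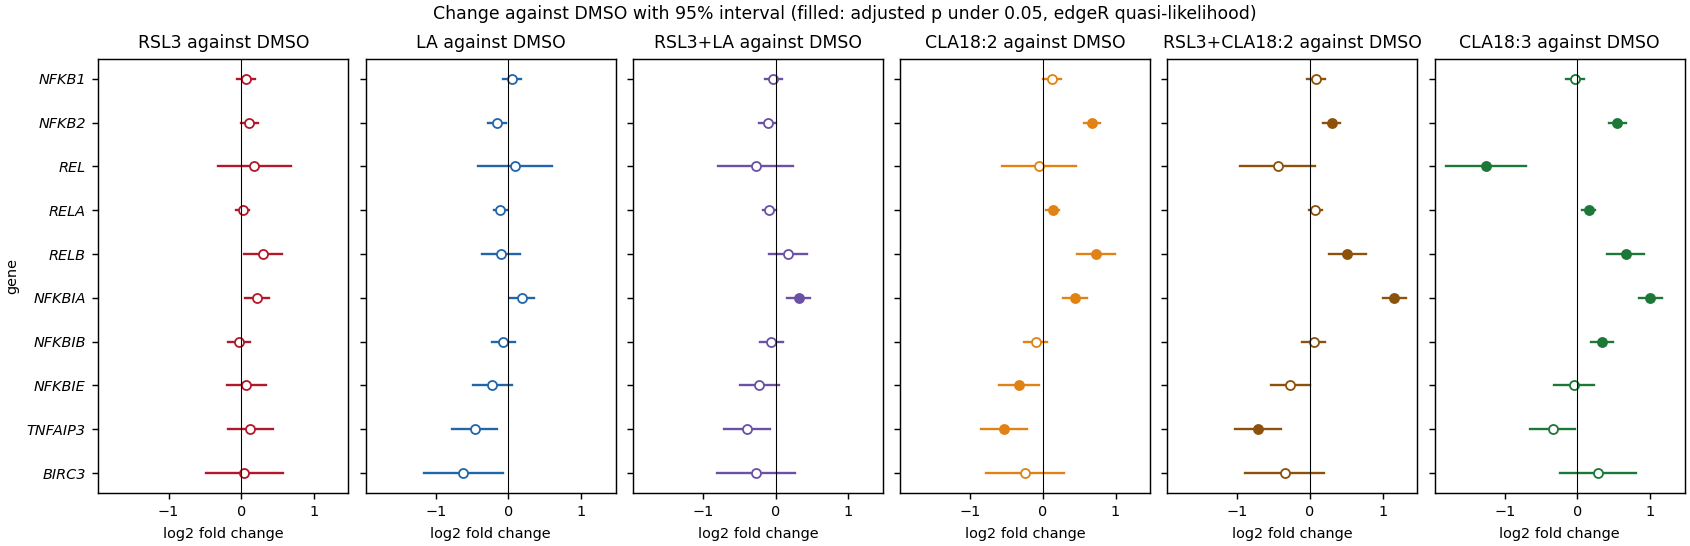
Log2 fold change of each gene against DMSO in the 6 treatments, with lines for the 95% interval and filled points for adjusted p under 0.05 in edgeR. No point is filled for RSL3 or LA alone, and NFKB2, RELB and NFKBIA are filled to the right in all 3 panels with a conjugated acid.

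Counted against DMSO, 8 of the 10 genes passed in at least 1 of 6 treatments, and NFKB1 and BIRC3 in none. With CLA18:2, 4 rose (NFKB2, RELB, NFKBIA and RELA) and 2 fell (TNFAIP3 and NFKBIE), where 38.8% of all genes tested were called, 20.1% higher and 18.6% lower. With CLA18:3, 5 rose (the same 4 and NFKBIB) and REL fell, with 35.9% of all genes called, 19.1% higher and 16.7% lower. With RSL3+CLA18:2, 3 rose and 1 fell, with 35.2% of all genes called, 18.6% higher and 16.6% lower. The members' shares are read against these backgrounds, and no set test was made. The median change over them was 0.03 with CLA18:2, 0.22 with CLA18:3 and 0.06 with RSL3+CLA18:2, against -0.02, 0.00 and -0.02 over all genes.

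With RSL3+LA, NFKBIA alone rose and none fell, where 10.2% of all genes were called, 5.43% higher and 4.81% lower. With RSL3 alone edgeR called 0 of 10, with 0.202% of all genes called, as did DESeq2 and limma voom. RELB and NFKBIA passed at an unadjusted p under 0.05. With LA alone edgeR called 0 of 10, with 8.32% of all genes called (4.91% higher and 3.41% lower), while 5 passed at an unadjusted p under 0.05. DESeq2 called 1 of them, TNFAIP3, and limma voom called all 5, with NFKBIA higher and NFKB2, RELA, TNFAIP3 and BIRC3 lower. These 6 comparisons share the DMSO libraries and are not independent of each other.

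CLA18:2 against LA compared the isomers at 80 µM, where the position of the double bonds is the named difference. NFKB2 was higher with CLA18:2 by 0.83 ± 0.06 (adjusted p = 7.9e-14), RELB by 0.84 ± 0.13 (adjusted p = 2.6e-06), RELA by 0.25 ± 0.04 (adjusted p = 2.2e-05) and NFKBIA by 0.25 ± 0.08 (adjusted p = 0.013). In each of these 4 genes the libraries of the isomers did not overlap. They made 4 of 10 higher and 0 lower, where 30.2% of all genes were called, 15.6% higher and 14.6% lower. The call of NFKBIA was lost without replicate 3 of CLA18:2 (0.22, adjusted p = 0.054). For the other 6 genes no difference passed, with intervals of -0.05 to 0.19 for NFKB1, -0.19 to 0.12 for NFKBIB and -0.39 to 0.16 for NFKBIE. The intervals of REL (-0.66 to 0.36) and BIRC3 (-0.18 to 0.92) were wide.

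In the presence of RSL3 the isomers differed in the same 4 genes, but NFKBIA led. RSL3+CLA18:2 was above RSL3+LA by 0.84 ± 0.08 in NFKBIA (adjusted p = 1.5e-10), 0.40 ± 0.06 in NFKB2 (adjusted p = 1.5e-06), 0.16 ± 0.04 in RELA (adjusted p = 0.0068) and 0.34 ± 0.13 in RELB (adjusted p = 0.044), with 26.1% of all genes called. Of the 16325 genes tested, 14.1% were called higher and 1958 genes lower. RELB overlapped between these groups, and its call was lost in 8 of 14 alternatives, with adjusted p up to 0.145. RELA was lost in 2 of 14, with adjusted p up to 0.073.

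Each acid was also compared on top of RSL3. Against RSL3 alone, RSL3+CLA18:2 was higher in NFKBIA by 0.94 ± 0.08 (adjusted p = 8.9e-12) and in NFKB2 by 0.19 ± 0.06 (adjusted p = 0.011), and lower in TNFAIP3 by -0.84 ± 0.16 (adjusted p = 6.5e-05). NFKBIE was at -0.34 ± 0.13 with adjusted p = 0.0498, a call lost in 11 of 15 alternatives, and at -0.18 (adjusted p = 0.303) without replicate 3 of RSL3+CLA18:2. Of all genes 30.4% were called, 15.9% higher and 14.5% lower. RSL3+LA was lower than RSL3 in NFKB2 by -0.22 ± 0.06 (adjusted p = 0.014) and in TNFAIP3 by -0.52 ± 0.15 (adjusted p = 0.025), where 9.58% of all genes were called, 3.78% higher and 5.80% lower. Each of these 2 calls was lost in 4 of 14 alternatives, in both genes without replicate 1 of RSL3 or of RSL3+LA. Without either of those libraries 0 of the 10 genes were called, against 2 with all libraries.

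With CLA18:2 present, adding RSL3 went with lower NFKB2 and higher NFKBIA. Against CLA18:2 alone, RSL3+CLA18:2 had NFKB2 lower, at -0.38 ± 0.06 (adjusted p = 1.7e-05), and NFKBIA higher, at 0.72 ± 0.08 (adjusted p = 9.7e-08), with no overlap of libraries in either. These were 1 higher and 1 lower of 10, where 11.9% of all genes were called, 6.65% higher and 5.24% lower. RELB was at -0.22 ± 0.12 and did not pass (adjusted p = 0.289). Against LA alone, RSL3+LA gave 0.05 ± 0.06 in NFKB2 and 0.13 ± 0.08 in NFKBIA, and 0 of 10 genes passed in edgeR, DESeq2 or limma voom, with 0.0490% of all genes called (0.0368% higher and 0.0123% lower) and 1 gene, RELB, at an unadjusted p under 0.05.

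The difference between these responses was tested as an interaction. The response to RSL3 was lower with CLA18:2 than without it in NFKB2, by -0.49 ± 0.08 (adjusted p = 3.4e-04), and higher in NFKBIA, by 0.50 ± 0.11 (adjusted p = 0.0078). Of all genes 3.55% were called, 1.75% higher and 1.80% lower in this interaction. Between the isomers, the response with CLA18:2 less that with LA was -0.43 ± 0.08 in NFKB2 (adjusted p = 0.0017) and 0.59 ± 0.11 in NFKBIA (adjusted p = 0.0016), with 3.63% of all genes called, 2.41% higher and 1.22% lower. RELB lay on the side of NFKB2 in both, at -0.52 ± 0.18 and -0.50 ± 0.18, without passing (adjusted p = 0.114 and 0.130). Without the low-count filter both passed (adjusted p = 0.0479 and 0.0495). Without replicate 3 of RSL3+CLA18:2 the NFKBIA interaction with CLA18:2 was 0.43 (adjusted p = 0.026). For RSL3 with LA edgeR called 0 of 10 genes, with 0.0245% of all genes called, 0 at an unadjusted p under 0.05, and 0 in DESeq2 or limma voom.

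**Figure D4:**
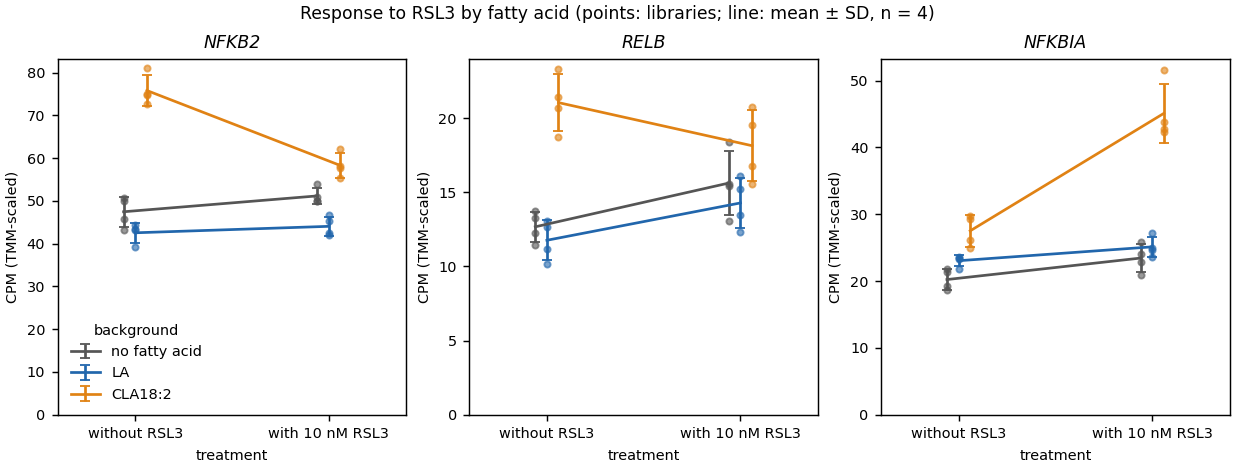
Levels of NFKB2, RELB and NFKBIA (CPM, TMM-scaled) without and with 10 nM RSL3, in cells given no fatty acid, LA or CLA18:2, with points for libraries and lines joining means ± SD of 4. The CLA18:2 line falls for NFKB2 (by 0.38 on the log2 scale) and climbs for NFKBIA.

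Other genes of the pathway were counted from 3 lists, beside median changes over all genes of -0.02 with CLA18:2, 0.00 with CLA18:3 and 0.00 with LA. The shares called over all genes were, as above, 38.8% with CLA18:2 (20.1% higher and 18.6% lower), 35.9% with CLA18:3 (19.1% and 16.7%) and 8.32% with LA. Of 18 partners, further IkappaB proteins and IKK kinases, 6 rose and 2 fell with CLA18:2, and 2 rose and 6 fell with CLA18:3, with medians of 0.03 and -0.11. The number called, 8 of 18 in each, is near the share over all genes. TBK1, a kinase related to IKK, rose by 0.59 ± 0.06 with CLA18:2 (adjusted p = 1.9e-10) and 0.44 ± 0.06 with CLA18:3 (adjusted p = 1.5e-07). NFKBIZ, a nuclear IkappaB protein, fell by 0.76 ± 0.19 and 0.78 ± 0.19. MAP3K14, the kinase NIK, fell by 0.51 ± 0.08 with CLA18:3 (adjusted p = 3.2e-06), from 44.0 to 49.8 CPM in DMSO to 30.9 to 36.5 CPM. NKIRAS2, which binds IkappaB beta, fell by 0.20 ± 0.05 with CLA18:3. FBXW11, a ligase subunit that recognises phosphorylated IkappaB, rose by 0.18 ± 0.04 with CLA18:2, and TAB3, an adaptor of the kinase TAK1, by 0.27 ± 0.08. None of the 18 passed with RSL3 or LA in edgeR.

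Of 28 tested receptors, adaptors and ubiquitin enzymes, 11 rose and 4 fell with CLA18:2, 11 rose and 3 fell with CLA18:3, and 3 rose and 0 fell with LA. Their medians were 0.16, 0.12 and 0.04. The called numbers, 15, 14 and 3 of 28, stand beside 38.8%, 35.9% and 8.32% over all genes. TNIP1, which binds A20, went from 110 to 130 CPM in DMSO to 195 to 209 CPM with CLA18:2, a rise of 0.72 ± 0.05 (adjusted p = 8.6e-14), and rose by 0.49 ± 0.05 with CLA18:3. TAX1BP1, an adaptor of A20, rose by 0.75 ± 0.06 and 0.41 ± 0.06, and CYLD, a deubiquitinase that restrains the pathway, by 0.69 ± 0.07 with CLA18:2 (adjusted p = 1.3e-10). CYLD was 42.0 to 47.0 CPM in DMSO, 69.3 to 77.0 with CLA18:2, 50.3 to 59.7 with CLA18:3 and 48.9 to 50.4 with LA. TNFRSF1A, the main receptor of TNF, rose by 0.49 ± 0.04 with CLA18:2, 0.28 ± 0.04 with CLA18:3 and 0.32 ± 0.04 with LA (adjusted p = 3.4e-07). LTBR, a receptor of the noncanonical pathway, rose by 0.17 ± 0.04 with LA, and XIAP by 0.24 ± 0.06, the latter not without replicate 4 of LA (adjusted p = 0.069). LTBR was 151 to 160 CPM in DMSO, 172 to 181 with LA, 182 to 196 with CLA18:2 and 174 to 186 with CLA18:3. XIAP was 65.0 to 67.6 CPM in DMSO, 71.1 to 85.8 with LA, 82.4 to 92.7 with CLA18:2 and 62.8 to 77.4 with CLA18:3. RBCK1, a part of the linear ubiquitin ligase, rose by 0.48 ± 0.05 with CLA18:3 (adjusted p = 1.3e-09).

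Of 26 tested target genes of NF-kappaB, 14 rose and 5 fell with CLA18:2 and 13 rose and 2 fell with CLA18:3, with medians of 0.49 and 0.23. The called numbers, 19 and 15 of 26, stand beside 38.8% and 35.9% over all genes. The list has 32 genes, and those not tested had too few counts. With LA 3 rose and 2 fell, where 8.32% of all genes were called. With RSL3 the chemokine gene CXCL8 was the 1 gene called, where 0.202% of all genes were called. CXCL8 had the smallest p of the list with both conjugated acids, rising by 4.10 ± 0.16 with CLA18:2 (adjusted p = 8.4e-21) and 3.65 ± 0.16 with CLA18:3 (adjusted p = 6.2e-19), and by 1.06 ± 0.18 with RSL3 (adjusted p = 0.0016). It went from 1.53 to 2.10 CPM in DMSO to 27.96 to 34.0 CPM with CLA18:2, 18.1 to 28.6 CPM with CLA18:3 and 2.85 to 4.64 CPM with RSL3. With LA CXCL8 had 2.81 to 3.75 CPM and with RSL3+LA 3.38 to 3.95 CPM, also above every DMSO library. CXCL3, another chemokine gene, went from 0.613 to 1.05 CPM in DMSO to 9.55 to 12.2 CPM with CLA18:2 and 9.64 to 14.7 CPM with CLA18:3, with a rise of 3.76 ± 0.24 for CLA18:2. IL1A rose by 2.12 ± 0.31 with CLA18:3, from 0.344 to 0.892 CPM in DMSO, so its fold is rough. It had 2.44 to 3.04 CPM with CLA18:3 and 2.88 to 4.22 CPM with CLA18:2. PLAU, the urokinase gene, rose by 0.63 ± 0.04 with CLA18:2 and 0.32 ± 0.04 with CLA18:3. It was not particular to the conjugated acids. PLAU had 566 to 580 CPM in DMSO, 852 to 899 with LA, 865 to 945 with CLA18:2 and 684 to 743 with CLA18:3. GADD45B, a stress gene that NF-kappaB induces, fell by 0.72 ± 0.08 with CLA18:2 (adjusted p = 9.3e-10). It had 120 to 129 CPM in DMSO, 70.7 to 82.9 with CLA18:2, 85.5 to 97.4 with LA and 87.3 to 99.5 with RSL3+LA. With CLA18:3 GADD45B had 96.3 to 136 CPM, overlapping DMSO. Many of these genes also answer to other factors, and NFKBIZ and TRAF1 stand in 2 of the 3 lists.

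Likeness of pattern was measured by Pearson's r of log2(CPM + 1) over the 28 libraries, among 11952 other genes with a mean of at least 2 CPM. Closest to NFKB2 were WBP2 (0.948), TRIB3 (0.936), HERPUD1 (0.934), HDAC9 (0.931) and RCAN1 (0.931). Closest to NFKBIA were CHCHD3 (0.939), FOS (0.926), EIF1 (0.915), PTGES3 (0.915) and GPX8 (0.910). FOS, which encodes an AP-1 subunit, stood at 59.6 to 67.3 CPM with RSL3+CLA18:2 and 28.5 to 38.3 CPM with CLA18:3, against 0.167 to 0.630 CPM in DMSO. By Spearman's rho 2 of the 5 genes closest to NFKB2 stayed among the closest 5, and 0 of those closest to NFKBIA did. Within the 10 genes, NFKB2 had an r of 0.825 with RELB and 0.821 with RELA, and 0.560 with NFKBIA. NFKBIA had an r of -0.492 with TNFAIP3. The points share treatments and libraries, so these values describe the data set only.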

How the data were processed

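The deposited files hold raw counts per gene, whole numbers, which the authors made from total RNA. The tools named in the submitters' processing notes are featureCounts, HISAT, DESeq2 and SAMtools, and the build is hg38. Versions, annotation and strand setting are not given in the sources used here. The labels write mM for the acids where the design text has µM, which is used here. Labels give no batch. Counts were fitted in edgeR 4.0.16 (R 4.3.3) with the default low-count filter, TMM scaling and 1 mean per group over all 28 libraries, in 12 comparisons and 3 interactions with Benjamini-Hochberg adjustment over 16325 genes at 0.05. The SE is the size of the log2 fold change over the square root of F. DESeq2 1.42.0 and limma 3.58.1 (voom with a weight per group) were alternatives. The fit was tested on simulated counts. Exon lengths came from GENCODE 29.

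The 10 genes and the 3 pathway lists were chosen with earlier results of these data known. From each list the text names up to 4 genes with the smallest p, among those past the threshold, in CLA18:2 and in CLA18:3 against DMSO, and those past it with RSL3 or LA where 4 or fewer. The 5 genes most like NFKB2 and NFKBIA were named by r.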

Additional observations from a re-analysis of the deposited data

Results flagged for a closer look

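Of 70 sets of 4 libraries (10 genes in 7 groups), 4 had 1 library far from the other 3 by Dixon's criterion, which chance gives in about 1 of 20 sets. NFKBIA in RSL3+CLA18:2 replicate 3 was 51.6 CPM against 42.3 to 43.8 in the others, and in LA replicate 2 it was 21.8 CPM against 23.4 to 23.5. NFKBIE in DMSO replicate 1 was 15.8 CPM against 12.2 to 12.7, and in CLA18:3 replicate 1 it was 15.9 CPM against 11.6 to 12.3.

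In 4 tests, of NFKB2 and NFKBIA, the response to RSL3 differed between backgrounds. Both interactions use the same RSL3+CLA18:2 and CLA18:2 libraries, so these tests are not independent of each other. With CLA18:2 against without, the difference was -0.49 in NFKB2 and 0.50 in NFKBIA, and with CLA18:2 against LA it was -0.43 in NFKB2 and 0.59 in NFKBIA. All 4 stayed past the threshold in every alternative run.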

How the results depend on the processing

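Of 37 calls of the 10 genes, 28 held in every alternative and none changed sign. The 9 that some alternative lost were 2 of NFKBIE, 3 of RELA and 1 each of NFKBIA, NFKB2, RELB and TNFAIP3. The cause was not tested. With LA against DMSO the count of the 10 genes called, 0 in the report, was 1 with no low-count filter, 2 in a fit on the 2 groups, 5 in limma voom, 1 in DESeq2 and 0 to 1 when each library was left out. For RSL3+LA against DMSO, 1 in the report, it was 2 with no filter, 2 on the 2 groups, 2 in voom and 1 to 2 without single libraries. For RSL3+LA against RSL3, 2 in the report, it was 1 with no filter and 0 to 2 without single libraries. For RSL3+CLA18:2 against RSL3+LA, 4 in the report, it was 2 on the 2 groups. With LA, the partners and kinases called were 2 on the 2 groups, 3 in voom, 1 in DESeq2 and 0 to 1 without single libraries, the receptors and adaptors 5 on the 2 groups and 5 in voom, and the targets 8 on the 2 groups and 9 in voom. With RSL3 the targets called were 2 in voom.

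Over all genes, calls rose from 33 to 112 with no filter, 70 in DESeq2 and 147 in voom for RSL3, and fell to 20 without DMSO replicate 3. For LA they rose from 1358 to 2394 on the 2 groups and 2639 in voom, and for RSL3+LA from 1672 to 2541 in voom. For RSL3+LA against LA they were 8, against 164 with no filter, 16 in voom, 54 in DESeq2, and 4 to 9 without single libraries. For the interactions they went from 4 to 132 with no filter, 21 in voom and 30 in DESeq2 for LA, from 580 to 879 in DESeq2 for CLA18:2, and from 593 to 374 without RSL3+LA replicate 1 and 379 without LA replicate 3 between the isomers. The replicate block changed no call of the 10 genes, with 6 called for CLA18:2 and 6 for CLA18:3. Same-numbered libraries correlated above 0.1 in 7 of 84 pairs, and in no group pair for all 4 numbers. RSL3 and LA came closest, at 0.0237, 0.164, 0.105 and 0.147. The check did not show pairing by number and cannot exclude it. A fit of RSL3+CLA18:2 and RSL3 alone with the block, chosen after seeing the data, kept 4 calls. Unscaled totals moved 1 of 70 levels by more than its SD. That level was NFKB2 with CLA18:3, at 68.2 to 71.1 CPM scaled and 65.7 to 68.6 CPM unscaled, above every DMSO library in both. REL and BIRC3, with 10 to 92 counts, are limited by depth.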
